A study of Homo sapiens with 12 samples.

Results

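The cytosolic ribosomal protein genes encode the protein parts of the ribosome that works in the cytosol, and they were chosen here by name. A transcript cluster (the array's unit of measurement, a set of probes summarized to a single value) was a member where the platform annotation gave it a gene symbol of RPL or RPS and a number, with an optional A, X, L or Y after it. This rule took 56 transcript clusters of 49 genes, out of 16098 transcript clusters with a gene symbol for 14884 genes and out of 53617 in all, 190 control probe sets among them. Of these, 37 transcript clusters of 31 genes belonged to the large subunit (RPL) and 19 of 18 genes to the small subunit (RPS). RPL19, RPL39 and RPS18 had 2 transcript clusters each and RPL41 had 5, and every one of them was kept. RPL3 and RPL5 were not analysed here.

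Gene expression had been profiled with Affymetrix Human Gene ST arrays, and the cells were BT-549, an established human triple-negative breast cancer line of mesenchymal type. The study asked what changes when annexin A6 (AnxA6, gene ANXA6), a calcium-dependent membrane-binding protein, is down-regulated. All 3 lines were stable transfectants of BT-549 grown in complete medium with serum, and RNA of each was hybridized to 4 arrays. BT-EV, the control, is an empty-vector line in the study and is labelled as carrying a control shRNA, BT-A6sh5 carried shRNA-5 against ANXA6 and BT-A6sh2 carried shRNA-2 against ANXA6. Each condition was therefore a single line, and the shRNA and other differences between the lines cannot be told apart. The 4 replicates of a line are called biological in the array titles and technical in the study, so the p-values measure only the spread between arrays, which may be technical.

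Each ribosome is built from ribosomal RNA and a single copy of nearly every ribosomal protein, shared out between a small subunit, which reads the mRNA, and a large subunit, which joins the amino acids. Their mRNAs are among the most abundant of a growing cell, and most begin with a terminal oligopyrimidine tract, a C at the transcription start followed by a run of pyrimidines, through which growth signals acting by mTOR and LARP1 set how strongly they are translated. Ribosomal proteins are made in step with ribosomal RNA, and surplus copies are degraded. A few members have a tissue-specific copy on another chromosome, such as RPL3L in heart and skeletal muscle or RPL10L and RPL39L in the male germ line.

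The annotated start is the feature these genes share that the choice by name did not use, and the sequences below show it for the members on which the later comparisons turn. Each is 10 bases before the annotated start and 20 bases from it, on the gene's own strand, 5′ to 3′, from RefSeq on GRCh38.p14, so that the start is base 11, and capitals mark the unbroken run of pyrimidines (C or T) that holds the start base. The first 3 are genes whose transcript clusters disagreed. The next 4 are genes lower in BT-A6sh5, then 2 members with a run of 2 bases or none that BT-A6sh5 had at a lower level than BT-A6sh2. The last 4 set RPS27 and RPL10 beside their copies RPS27L and RPL10L.
RPL41 (chr12:56116623-56116652, plus strand): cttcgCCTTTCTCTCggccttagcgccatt
RPL39 (chrX:119791611-119791640, minus strand): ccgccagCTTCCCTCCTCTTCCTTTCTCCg
RPL19 (chr17:39200313-39200342, plus strand): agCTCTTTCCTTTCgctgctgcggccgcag
RPS14 (chr5:150449720-150449749, minus strand): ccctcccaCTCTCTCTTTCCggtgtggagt
RPS23 (chr5:82278335-82278364, minus strand): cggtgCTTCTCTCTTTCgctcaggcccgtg
RPL24 (chr3:101686699-101686728, minus strand): atgaTTCTCTCTTTCTTTTCgccatctttt
RPL29 (chr3:51995876-51995905, minus strand): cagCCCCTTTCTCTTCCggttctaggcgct
RPS29 (chr14:49598691-49598720, minus strand): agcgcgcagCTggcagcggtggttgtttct
RPS26 (chr12:56041908-56041937, plus strand): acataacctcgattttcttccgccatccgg
RPS27 (chr1:153990752-153990781, plus strand): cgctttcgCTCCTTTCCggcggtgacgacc
RPS27L (chr15:63157458-63157487, minus strand): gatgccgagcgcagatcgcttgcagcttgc
RPL10 (chrX:154398367-154398396, plus strand): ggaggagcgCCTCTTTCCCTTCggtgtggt
RPL10L (chr14:46651762-46651791, minus strand): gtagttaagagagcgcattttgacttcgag

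Of the 49 genes, 44 had at least 1 entry in the RefSeq promoter table, and in 30 of them (68.2%) an annotated start was a C followed by at least 4 pyrimidines. The same feature was present in 988 of 15843 protein-coding genes with an entry (6.24%) and in 1404 of 27305 genes of any kind (5.14%). It was looked for only at the annotated start and only on the gene's strand. Where a gene had several annotated starts, any of them counted, and the entry of RPL19 shown above begins its run with a T at the start base and so was not counted. Translation initiation factors carried it in 1 of 13 genes (7.69%), ribosome biogenesis factors in 3 of 42 (7.14%) and elongation and termination factors in 2 of 6 (33.3%). The match describes letters at an annotated position and shows no regulation.

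**Figure D1:**
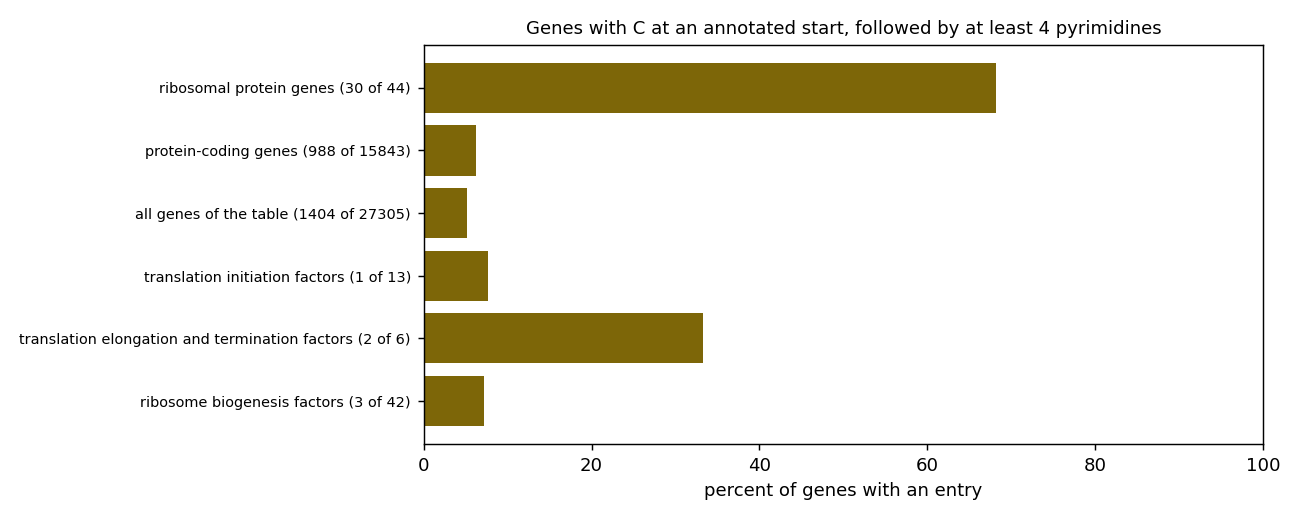
Bars give the percent of genes with a RefSeq promoter entry whose annotated start is a C followed by at least 4 pyrimidines, for 6 gene sets, with the number of genes in brackets. The bar of the ribosomal protein genes stands at 68.2%, against 6.24% for protein-coding genes.

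The labels were checked first, with limma's moderated test on the log2 values, in which errors after ± are standard errors of the fitted difference and p-values are adjusted by Benjamini-Hochberg over all 53617 transcript clusters. The ANXA6 transcript cluster lay at 11.43, 11.42, 11.37 and 11.40 on the log2 scale in BT-EV, at 8.83, 8.89, 8.72 and 8.69 in BT-A6sh5 and at 10.57, 10.32, 10.50 and 10.41 in BT-A6sh2. It fell by 2.63 ± 0.09 in BT-A6sh5 (6.17-fold, adjusted p = 2.21e-09) and by 0.96 ± 0.09 in BT-A6sh2 (1.94-fold, adjusted p = 0.000158), so the knockdown was the weaker in BT-A6sh2. For BT-A6sh2 replicate 1 a free-text description gives the other shRNA, whereas title and transfectant label give that of its line, and its ANXA6 level of 10.57 lay beside those of its line. As percentiles of all transcript clusters of an array, the mesenchymal markers FN1, SNAI2, VIM and ZEB1 lay at 78.8 or above in every array, while EPCAM, an epithelial surface protein, lay at 19.3 to 29.8, the progesterone receptor PGR at 22.4 to 41.8 and PECAM1 of endothelial cells at 33.3 to 47.2. The epithelial keratins KRT8, KRT18 and KRT19 and CLDN4 lay at 42.7 to 79.8 and ESR1 at 42.5 to 53.5. SPARC, CDH1, ERBB2 and PTPRC were not analysed here. The values of BT-A6sh2 replicates 1 and 3 were more compressed than the rest, their standard deviations being 2.18 and 2.19 where the 10 remaining arrays had 2.26 to 2.33. The 36 hybridization control probe sets, bacterial and phage transcripts added to the samples, had a mean log2 level of 8.10 to 8.29 in BT-EV, 8.50 to 8.92 in BT-A6sh5 and 8.66 to 9.05 in BT-A6sh2, so that they too parted the control line from both knockdown lines.

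Within a line, the ribosomal protein transcripts spread less between arrays than transcript clusters at large. Over the 56 members the pooled standard deviation of the 4 arrays was 0.14 (BT-EV), 0.11 (BT-A6sh5) and 0.18 (BT-A6sh2), against 0.20, 0.27 and 0.45 over all transcript clusters. In every array 55 of the 56 lay above the array median. No background of like level was compared, so signal level and kind of gene cannot be told apart in this difference. RPL10L, the germ-line copy of RPL10, lay at 4.24, 4.42, 4.35 and 3.98 in the BT-EV arrays, 4.75, 4.16, 4.55 and 4.46 in those of BT-A6sh5 and 4.31, 4.12, 4.05 and 4.54 in those of BT-A6sh2, where the array medians ran from 4.92 to 5.05, a rough guide only because probes differ in brightness. The median deviation of the 56 from their own means over the 12 arrays ran from -0.01 to 0.03 in the BT-EV arrays, from -0.08 to 0.00 in BT-A6sh5 and from 0.03 to 0.12 in BT-A6sh2. The same median over all transcript clusters ran from -0.03 to -0.01, from -0.02 to 0.01 and from -0.01 to 0.07, and was highest in BT-A6sh2 replicates 1 and 3 (0.07 and 0.05). The members of the 2 knockdown lines thus did not overlap in the first measure, but they did relative to the second, since BT-A6sh2 replicate 3 had 0.03 beside 0.05 and BT-A6sh5 replicate 3 had 0.00 beside 0.01.

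BT-A6sh5 was compared with BT-EV first, and few ribosomal protein transcripts passed the test. Of 56 transcript clusters, 6 were higher in BT-A6sh5 than in BT-EV at an adjusted p under 0.05 (10.7%, where 4.11% of all 53617 were) and 4 were lower (7.14%, where 6.71% were). Of the transcript clusters with a gene symbol, 6.28% were higher and 12% lower, so the members' share of lower calls was below that of named ones. At a change of at least 2-fold, 4 were higher, where 0.742% of all were, and 0 were lower, where 1.19% were. All 6 that rose were of the large subunit, namely 1 transcript cluster of RPL19, 3 of RPL41, 1 of RPL39 and that of RPL30. Of the 6, 5 were of the 3 genes named first. With 1 transcript cluster kept per gene, the one of highest mean level, 2 were higher, RPL30 and RPL39 17106601. This choice left out the other transcript cluster of RPL39, 17113629, which had a log2 fold change of -0.39. The count of lower ones was 14 with each pair of lines fitted alone, 11 with a trended robust prior, 12 among transcript clusters above the median, 16 with array weights and 12 without BT-A6sh2 replicates 1 and 3. Over all transcript clusters the lower ones were 3598 in the main fit and 5063, 4225, 4385 of 26808, 5525 and 4932 in these settings, in order. In bulk RNA, fewer cells that express a transcript and less of it per cell cannot be told apart. The 4 members that fell were RPS23, RPS14, RPL24 and RPL29. The other 46 had log2 fold changes from -0.43 to 0.26. The median over the 56 was -0.03, beside 0.05 over all transcript clusters and 0.01 over the named ones, and it was -0.15 over the small subunit and 0.00 over the large.

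In BT-A6sh2, with its weaker knockdown, 7 transcript clusters were higher than in BT-EV (12.5%, where 5.35% of all were) and 2 were lower (3.57%, where 3.13% were). Of the transcript clusters with a gene symbol, 5.15% were higher and 4.63% lower. At 2-fold, 3 were higher, where 1.03% of all were, and 0 were lower, where 0.386% were. The risers were the same 5 transcript clusters of RPL19, RPL39 and RPL41, together with a further one of RPL41 and that of RPL28. RPL31 and RPS27L fell. With 1 transcript cluster per gene 2 were higher, RPL28 and RPL39 17106601. The higher ones numbered 4 with each pair of lines fitted alone, with array weights or without BT-A6sh2 replicates 1 and 3, and 11 with a trended robust prior or among transcript clusters above the median. Over all transcript clusters the higher ones numbered 2871 in the main fit and 944, 1796, 1289, 3316 and 2086 of 26808 in these settings, in order. The lower members numbered 4 with the trended robust prior and 0 in those first 3 settings. Over all, the lower ones numbered 1680 in the main fit, 2251 with that prior, and 664, 1217 and 1079 in those 3. The count of higher members was 4 without BT-EV replicate 1 or without replicate 2, and that of lower members was 0 without any single BT-EV array or BT-A6sh2 replicate 3, 1 when BT-A6sh2 replicate 1 was omitted and 4 when its replicate 2 was. Over all transcript clusters 970 and 865 were higher without BT-EV replicate 1 and replicate 2. Those lower were 686, 618, 638 and 645 without BT-EV replicates 1 to 4. Without BT-A6sh2 replicate 3, 1 or 2 they were 1179, 1420 and 3190. The median over the 56 was 0.06, beside 0.05 over all transcript clusters, and it was 0.06 in each subunit. Both comparisons used the same 4 BT-EV arrays, so their calls are not independent of each other. Calls against BT-EV moved with the scaling. After each array was centred on its median, 6 were higher and 7 lower in BT-A6sh5 and 11 and 1 in BT-A6sh2, while another round of quantile normalization gave 6 and 3 in the first and 7 and 1 in the second. Over all transcript clusters centring gave 1901 higher and 3739 lower in BT-A6sh5 and 4016 and 1252 in BT-A6sh2. The further quantile normalization gave 2366 and 3250 over all in BT-A6sh5 and 1384 and 1308 in BT-A6sh2. With the mean of the hybridization controls as a covariate limma called 0 of the 56 against BT-EV in either direction (at an unadjusted p under 0.05, 4 higher and 5 lower in BT-A6sh5 and 6 and 0 in BT-A6sh2), and over all transcript clusters this fit called 425 higher and 505 lower in BT-A6sh5 and 0 higher and 4 lower in BT-A6sh2, where the fit without it called 2202 and 3598 and then 2871 and 1680.

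The 2 knockdown lines were then set against each other. In BT-A6sh5, 16 ribosomal protein transcript clusters were lower than in BT-A6sh2 (28.6%, where 11.4% of all transcript clusters were) and 3 were higher (5.36%, where 8.16% were). Of the transcript clusters with a gene symbol, 16.7% were lower and 11.3% were higher. The small subunit gave 7 of 19 lower (36.8%) and the large subunit 9 of 37 (24.3%), and the medians were -0.15 and -0.09, beside -0.03 over all transcript clusters. None of the 16 reached 2-fold. When the members were split at their median level (8.415), 11 of the 28 dimmer ones were lower, with a median of -0.21. Of the 28 brighter ones 5 were lower, with a median of -0.09. The part of signal level in this was not tested. Of the 16, 4 had also fallen in BT-A6sh5 against BT-EV and 11 had passed the test in neither line against BT-EV. In 13 of the 16 the BT-A6sh5 mean lay below that of BT-EV and the BT-A6sh2 mean above it. Because the 16 were picked for being lower in BT-A6sh5 than in BT-A6sh2, this order is partly set by the choice. The same share among all transcript clusters called lower was not counted here. The count of lower members was 7 with each pair of lines fitted alone (and that of the higher ones 1), 9 after a repeated quantile normalization, 21 after median centring and 12 with the hybridization controls as a covariate. It was 10 without BT-A6sh5 replicate 2, and the count of higher ones was 1 without BT-A6sh5 replicate 3 and 1 without BT-A6sh2 replicates 1 and 3. Over all transcript clusters the lower ones were 6102 in the main fit and 3341, 5111, 8038, 4809 and 5106 in these settings, in order. The higher ones over all were 4375 in the main fit and 2200 with pairs fitted alone. They were 3232 without BT-A6sh5 replicate 3 and 3892 without those 2 BT-A6sh2 arrays.

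**Figure D2:**
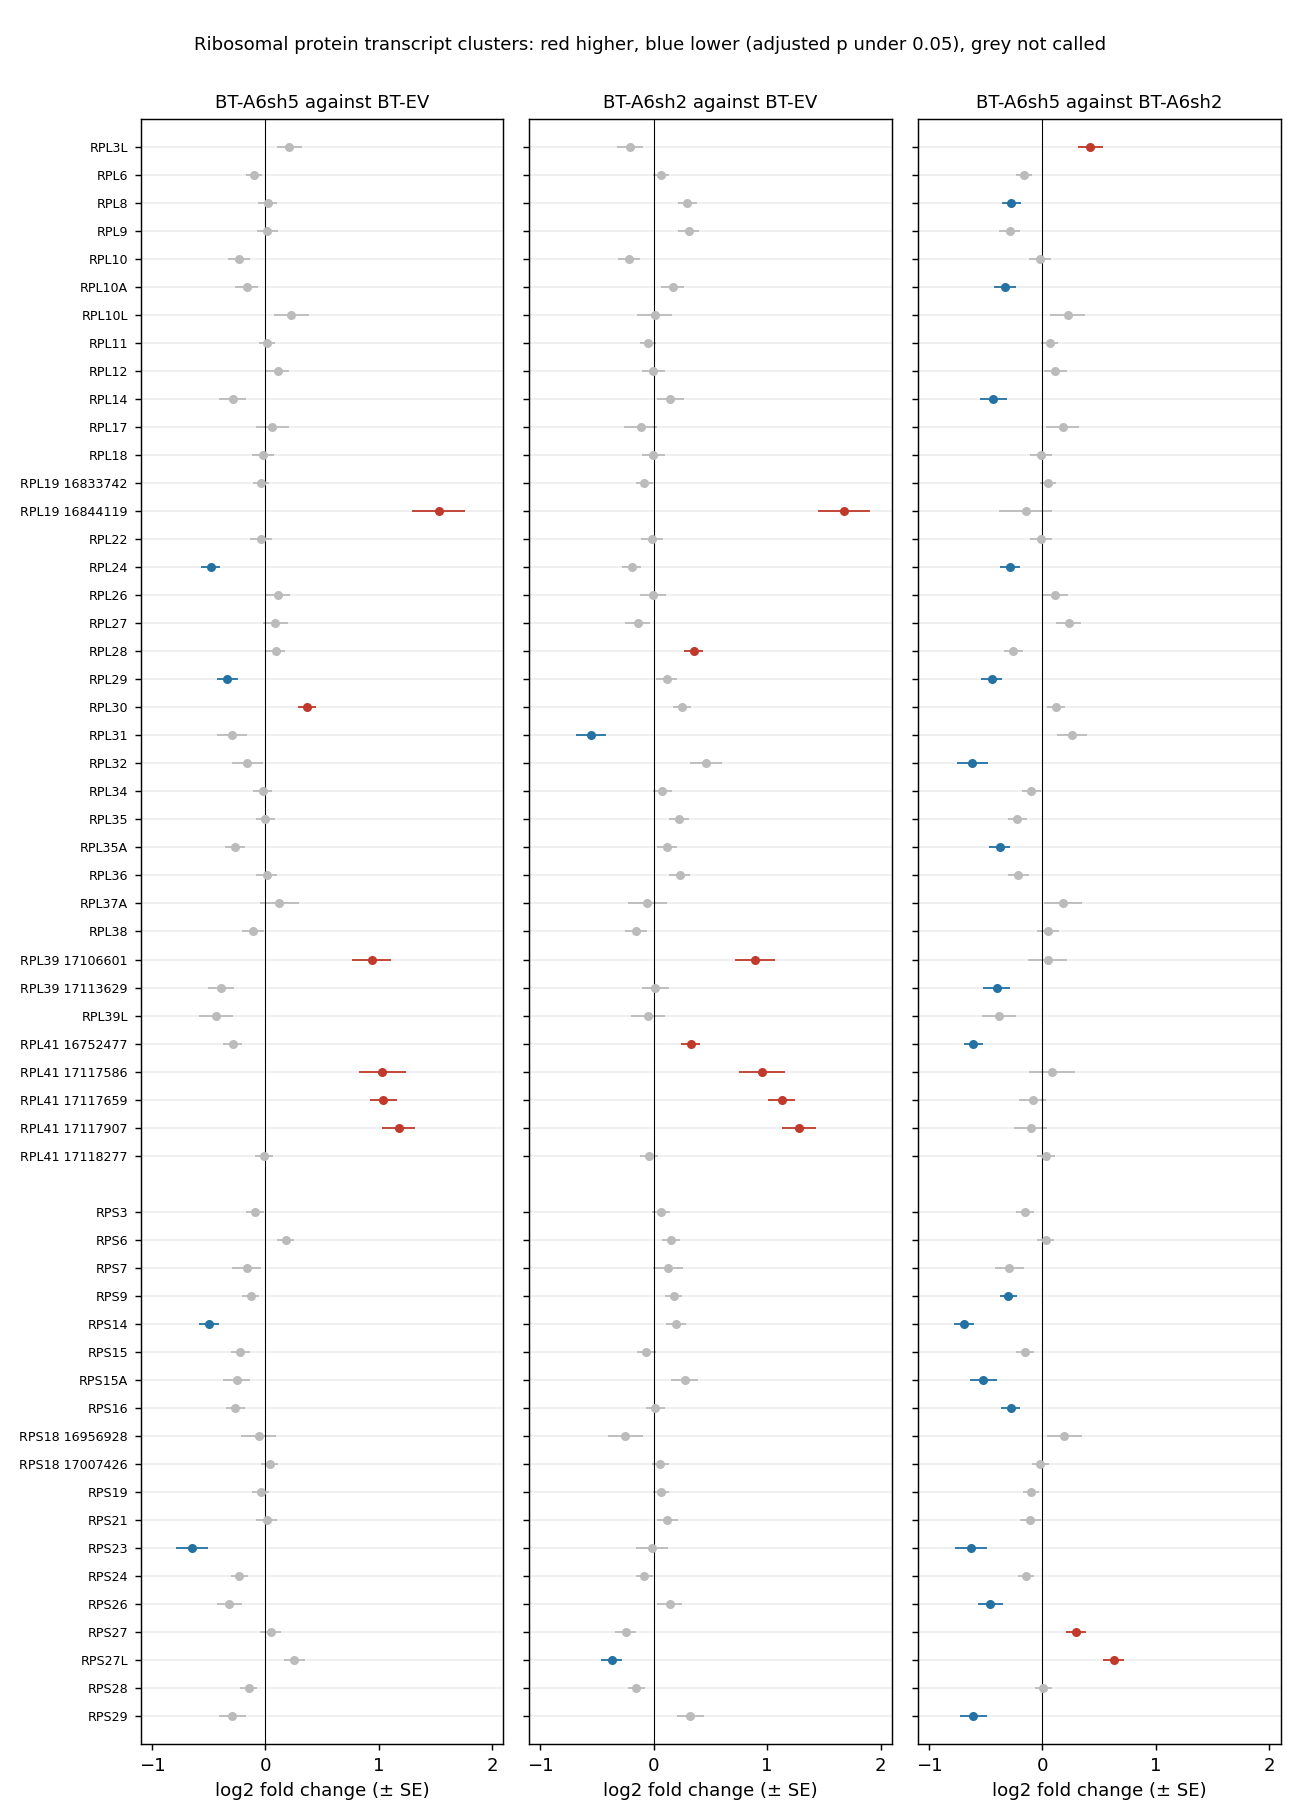
Points give the log2 fold change of each of the 56 ribosomal protein transcript clusters in the 3 comparisons, with whiskers of ± SE, the large subunit above the gap and the small subunit below it, and genes with several transcript clusters shown with their identifiers. In the third panel 16 points are called lower and 3 higher, and the 5 largest rises in the first and second panels all belong to RPL19, RPL39 and RPL41.

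RPL19, a large-subunit protein that reaches across to the small subunit, gave different answers from its 2 transcript clusters. RPL19 16844119 lay at 7.88, 8.70, 8.97 and 9.22 in the BT-EV arrays, 10.02, 10.24, 10.27 and 10.35 in those of BT-A6sh5 and 10.53, 10.19, 10.43 and 10.33 in those of BT-A6sh2. All arrays of both knockdown lines lay above all BT-EV arrays, and BT-EV replicate 1 was the lowest of the 12. It rose by 1.53 ± 0.23 (SE) in BT-A6sh5 (2.88-fold, adjusted p = 0.000937) and by 1.68 ± 0.23 in BT-A6sh2 (3.2-fold, adjusted p = 0.00254). RPL19 16833742, the other transcript cluster, lay at 12.31, 12.39, 12.45 and 12.40 in the BT-EV arrays, 12.31, 12.37, 12.35 and 12.39 in those of BT-A6sh5 and 12.27, 12.33, 12.30 and 12.32 in those of BT-A6sh2. Both knockdown lines overlapped BT-EV, and its log2 fold changes were -0.04 (95% interval -0.19 to 0.12) and -0.08 (95% interval -0.24 to 0.07).

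RPL39, a small protein that lines the tunnel through which the new protein chain leaves, showed the same split. RPL39 17106601 lay at 8.47, 8.59, 9.34 and 8.95 in the BT-EV arrays, 9.66, 9.64, 9.82 and 9.99 in those of BT-A6sh5 and 9.74, 9.62, 9.93 and 9.63 in those of BT-A6sh2. Every knockdown array lay above the highest BT-EV array, replicate 3. The log2 fold changes were 0.94 ± 0.17, adjusted p = 0.00357, in BT-A6sh5 and 0.89 ± 0.17, adjusted p = 0.0125, in BT-A6sh2. The call in BT-A6sh2 was lost with array weights, at an adjusted p of 0.0701, and when replicates 1 and 3 of that line were omitted together, at 0.0699, within a range of 0.00371 to 0.906 over its alternatives. RPL39 17113629 lay at 8.51, 8.59, 8.54 and 8.50 in the BT-EV arrays, 7.99, 8.13, 8.07 and 8.39 in those of BT-A6sh5 and 8.40, 8.76, 8.36 and 8.68 in those of BT-A6sh2. There the BT-A6sh5 arrays were all below the BT-EV arrays, at a log2 fold change of -0.39 that did not pass (adjusted p = 0.0555), and BT-A6sh2 lay on both sides of BT-EV (0.01, adjusted p = 0.953). Between the knockdown lines, which overlapped through 1 array each, it was lower in BT-A6sh5 by 0.40 ± 0.12 (adjusted p = 0.0317), a call that was lost without BT-A6sh5 replicate 1, 2 or 3 or without BT-A6sh2 replicate 2 or 4 (adjusted p up to 0.0888).

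RPL41, a very short basic protein at the face between the subunits, had 5 transcript clusters, of which 3 rose in both lines. RPL41 17117907 lay at 9.32, 9.82, 10.01 and 10.03 in the BT-EV arrays, 10.83, 11.00, 11.09 and 10.96 in those of BT-A6sh5 and 11.07, 11.04, 11.25 and 10.95 in those of BT-A6sh2, and its log2 fold changes were 1.18 ± 0.15, adjusted p = 0.000249, and 1.28 ± 0.15, adjusted p = 0.000881. RPL41 17117659 lay at 9.23, 9.46, 9.65 and 9.70 in the BT-EV arrays, 10.30, 10.65, 10.70 and 10.55 in those of BT-A6sh5 and 10.67, 10.57, 10.65 and 10.66 in those of BT-A6sh2, with changes of 1.04 ± 0.12, adjusted p = 0.000135, and 1.13 ± 0.12, adjusted p = 0.000545. In both, BT-EV replicate 1 was the lowest array and no BT-EV array reached a knockdown array. RPL41 17117586 lay at 6.96, 7.17, 8.03 and 7.59 in the BT-EV arrays, 8.44, 8.42, 8.49 and 8.54 in those of BT-A6sh5 and 8.34, 8.09, 8.70 and 8.42 in those of BT-A6sh2, with changes of 1.03 ± 0.20, adjusted p = 0.00559, and 0.95 ± 0.20, adjusted p = 0.0193. Its call in BT-A6sh2 was lost without BT-EV replicate 1 (adjusted p = 0.0542) or replicate 2 (adjusted p = 0.0659), and over all alternatives its adjusted p ran from 0.00794 to 0.819.

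The remaining pair of RPL41 transcript clusters behaved otherwise. RPL41 17118277 lay at 12.96, 12.98, 12.99 and 12.98 in the BT-EV arrays, 12.98, 12.91, 13.06 and 12.93 in those of BT-A6sh5 and 12.89, 13.05, 12.85 and 12.95 in those of BT-A6sh2. Its groups overlapped throughout, with log2 fold changes of -0.01 (95% interval -0.18 to 0.16) and -0.04 (95% interval -0.21 to 0.13). RPL41 16752477 lay at 7.59, 7.71, 7.59 and 7.79 in the BT-EV arrays, 7.46, 7.43, 7.28 and 7.37 in those of BT-A6sh5 and 7.93, 7.95, 8.02 and 8.07 in those of BT-A6sh2. The 3 lines did not overlap in it, with BT-A6sh5 lowest and BT-A6sh2 highest. It was higher in BT-A6sh2 than in BT-EV (0.33 ± 0.08, adjusted p = 0.0372), it missed the threshold in BT-A6sh5 (-0.28 ± 0.08, adjusted p = 0.0512), and it was lower in BT-A6sh5 than in BT-A6sh2 by 0.61 ± 0.08 (adjusted p = 0.000381). The rise in BT-A6sh2 was lost without any of the BT-EV replicates 1 to 4, without BT-A6sh5 replicate 1 or 2 and without BT-A6sh2 replicate 3 or 4 (adjusted p up to 0.107), whereas the difference between the knockdown lines held in all 21 alternatives.

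**Figure D3:**
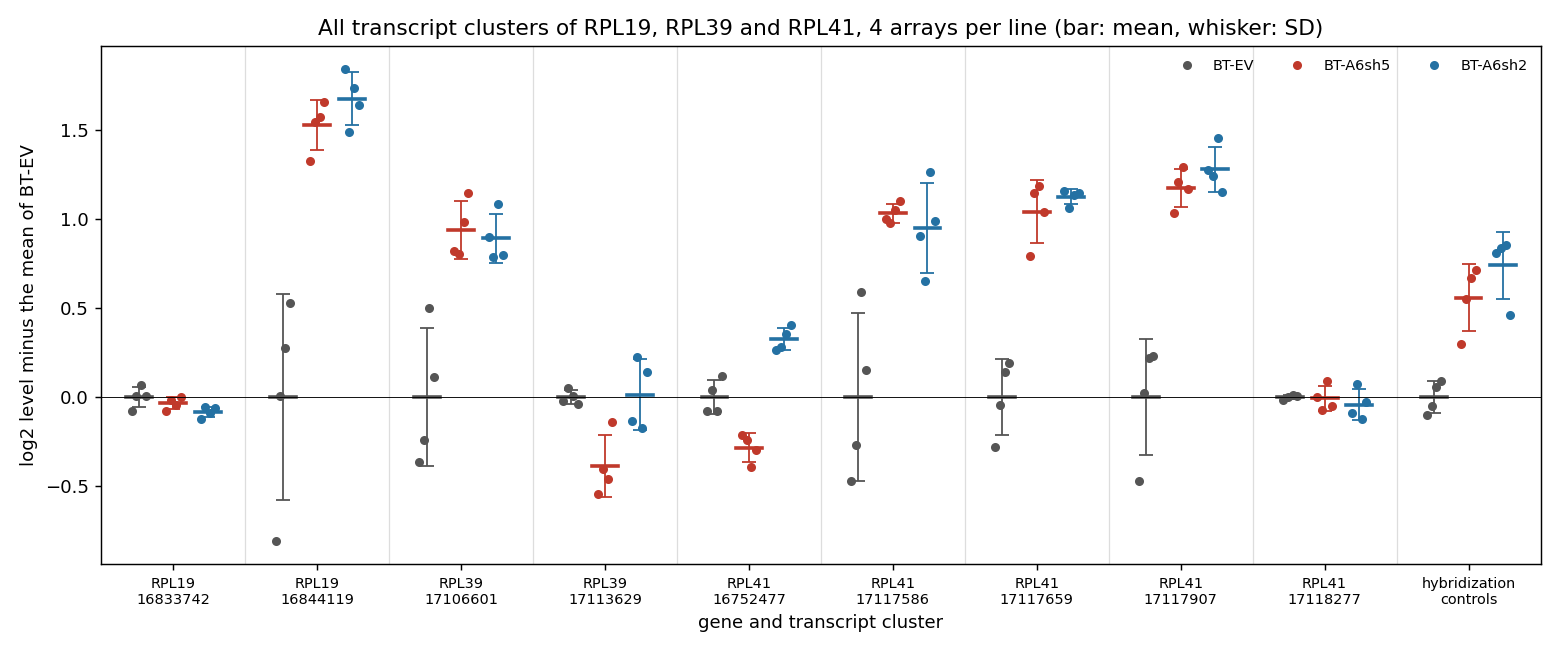
Points give each array's log2 level minus the BT-EV mean for the 9 transcript clusters of RPL19, RPL39 and RPL41, and at the right for the mean of the hybridization controls, with a bar at each line's mean and whiskers of ± SD (4 arrays per line). For 5 transcript clusters all knockdown arrays sit above all BT-EV arrays, while the 3 lines overlap in RPL19 16833742 and RPL41 17118277.

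Several measurements moved together with these 5 rises. The hybridization controls were also higher in both knockdown lines, and in RPL19 16844119 the BT-EV arrays kept the order of their control levels, since replicates 1 to 4 had control means of 8.10, 8.15, 8.26 and 8.29 and levels of 7.88, 8.70, 8.97 and 9.22. RPL41 17117659 and RPL41 17117907 kept that order as well, whereas RPL39 17106601 (8.47, 8.59, 9.34 and 8.95) and RPL41 17117586 (6.96, 7.17, 8.03 and 7.59) did not, being highest in replicate 3. In BT-A6sh5 the control means were 8.50, 8.75, 8.87 and 8.92, and of the 5 only RPL19 16844119 kept their order. In BT-A6sh2 they were 9.01, 9.04, 9.05 and 8.66, and none of the 5 did, RPL19 16844119 lying at 10.53, 10.19, 10.43 and 10.33. With the mean of the controls as a covariate the log2 fold changes of RPL19 16844119 were 0.97 (BT-A6sh5, adjusted p = 0.402) and 0.94 (BT-A6sh2, adjusted p = 0.667). These were the highest adjusted p of its alternatives, the lowest being 0.000193 and 0.000413. All 5 kept a positive sign in both lines, from 0.27 to 0.97, and none passed. In this fit the control level, which itself parts BT-EV from both knockdown lines, and the line share much of their variation, and the part of either in these rises was not tested further.

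The identifiers of the 5 transcript clusters also had an uncommon place. Identifiers of this array appear to ascend mostly in blocks of 1 chromosome and strand, judged from the genes' places in RefSeq and not from probe coordinates, which were not used here, and 10577 of the 11549 named transcript clusters whose gene has a strand in RefSeq lay among neighbours of which at least 80% shared the gene's chromosome and strand. RPL19 16844119 lay among 10 of 10 neighbours on the minus strand of chromosome 17, where RPL19 is on the plus strand. RPL39 17106601 lay among 10 of 10 on the plus strand of the X chromosome, where RPL39 is on the minus strand. The 3 of RPL41 lay among neighbours of mixed chromosomes, as did RPL41 17118277, whose groups overlapped, whereas RPL19 16833742, RPL39 17113629 and RPL41 16752477 lay among neighbours of their own gene's chromosome and strand. Of the named transcript clusters other than ribosomal protein ones, 309 lay among neighbours of the opposite strand, and in BT-A6sh5 8.74% of them were higher and 1.62% lower, against 6.76% and 14.3% of the 10539 among neighbours of their own strand. In BT-A6sh2 these were 3.88% and 1.29%, against 5.12% and 5.25%. The class with mixed neighbours, where the 3 of RPL41 lay, had no such excess of higher over lower calls in BT-A6sh5, as 6.74% of its 638 others were higher and 10.7% lower, while in BT-A6sh2 4.23% were higher and 3.45% lower. What the probes of these transcript clusters bind was not tested, and no probe sequences were used here.

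Both transcript clusters of RPS18, a protein of the small subunit's head, did not disagree. RPS18 16956928, which lay among neighbours on chromosome 3 although RPS18 is on chromosome 6, had log2 fold changes of -0.06 (95% interval -0.39 to 0.28) and -0.25 (95% interval -0.59 to 0.08). RPS18 17007426 had 0.04 (95% interval -0.12 to 0.20) and 0.06 (95% interval -0.11 to 0.22). Neither passed the test in any of the 3 comparisons. RPS27 and RPS28 likewise lay among neighbours of other chromosomes, 12 and 11. The transcript clusters of RPL10, RPL12, RPL31 and RPL35A lay among neighbours of mixed chromosome or strand.

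RPS23 and RPS14 of the small subunit gave the largest falls in BT-A6sh5. RPS23, which sits at the decoding centre, lay at 9.60, 9.51, 9.63 and 9.57 in the BT-EV arrays, 9.05, 8.95, 8.97 and 8.76 in those of BT-A6sh5 and 9.18, 9.88, 9.42 and 9.77 in those of BT-A6sh2. The BT-A6sh5 arrays were the 4 lowest, and BT-A6sh2 lay on both sides of BT-EV. It fell by 0.64 ± 0.14 in BT-A6sh5 against BT-EV (1.56-fold, adjusted p = 0.0107) and was lower than in BT-A6sh2 by 0.63 ± 0.14 (adjusted p = 0.00897). RPS14, a protein of the platform whose loss in blood stem cells is known from a myelodysplastic syndrome, lay at 8.55, 8.44, 8.44 and 8.47 in the BT-EV arrays, 7.90, 8.05, 8.06 and 7.90 in those of BT-A6sh5 and 8.79, 8.51, 8.72 and 8.67 in those of BT-A6sh2. No BT-A6sh5 array reached any array of the other lines. Its fall was 0.50 ± 0.09 against BT-EV (adjusted p = 0.00285) and the difference from BT-A6sh2 was -0.69 ± 0.09 (1.62-fold, adjusted p = 0.000209), while in BT-A6sh2 it did not pass (0.20, adjusted p = 0.169).

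Further small-subunit proteins passed only in the comparison of the knockdown lines. RPS29, a zinc-binding protein of the head, lay at 7.89, 7.99, 7.95 and 7.99 in the BT-EV arrays, 7.61, 7.72, 7.80 and 7.54 in those of BT-A6sh5 and 8.50, 7.97, 8.45 and 8.19 in those of BT-A6sh2. BT-A6sh5 was below BT-EV in all arrays, BT-A6sh2 overlapped BT-EV through replicate 2, and the knockdown lines did not overlap (-0.61 ± 0.12, adjusted p = 0.00407). RPS15A lay at 7.60, 7.47, 7.80 and 7.56 in the BT-EV arrays, 7.48, 7.46, 7.36 and 7.12 in those of BT-A6sh5 and 7.90, 7.79, 7.72 and 8.11 in those of BT-A6sh2, with no overlap between the knockdown lines (-0.52 ± 0.12, adjusted p = 0.00959). RPS26, which lies at the mRNA exit channel and is mutated in some families with Diamond-Blackfan anaemia, lay at 8.06, 8.07, 8.18 and 7.97 in the BT-EV arrays, 7.92, 7.67, 7.74 and 7.68 in those of BT-A6sh5 and 8.32, 7.95, 8.18 and 8.40 in those of BT-A6sh2. Its knockdown lines did not overlap, although BT-A6sh2 replicate 2 came close to BT-A6sh5 replicate 1 (-0.46 ± 0.11, adjusted p = 0.0128). RPS16 and RPS9 were lower as well, and RPS3, RPS6, RPS7, RPS15, RPS18, RPS19, RPS21, RPS24 and RPS28 were not called. Without BT-A6sh2 replicates 1 and 3 together the differences of RPS14, RPS23, RPS29 and RPS15A kept their calls and that of RPS26 did not (-0.42, adjusted p = 0.0574, within a range of 0.00308 to 0.0599 over its alternatives).

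Of the large subunit, RPL24 and RPL29 fell in BT-A6sh5. RPL24, which bridges to the small subunit, lay at 8.78, 8.74, 8.75 and 8.80 in the BT-EV arrays, 8.29, 8.22, 8.39 and 8.25 in those of BT-A6sh5 and 8.42, 8.69, 8.52 and 8.66 in those of BT-A6sh2. It was lowest in BT-A6sh5 and highest in BT-EV with no overlap among the 3 lines. It fell by 0.48 ± 0.09 in BT-A6sh5 (adjusted p = 0.00275), did not pass in BT-A6sh2 (-0.19, adjusted p = 0.164) and was lower in BT-A6sh5 than in BT-A6sh2 by 0.29 ± 0.09 (adjusted p = 0.0354). That last call was lost when any of 9 arrays was left out, namely every BT-EV array, BT-A6sh5 replicate 1, 2 or 4 and BT-A6sh2 replicate 2 or 4 (adjusted p up to 0.0852). RPL29, a protein of the subunit interface, lay at 9.00, 9.12, 8.98 and 9.06 in the BT-EV arrays, 8.59, 8.70, 8.91 and 8.62 in those of BT-A6sh5 and 9.15, 9.06, 9.25 and 9.16 in those of BT-A6sh2. It was below BT-EV in all BT-A6sh5 arrays (-0.33 ± 0.09, adjusted p = 0.0366) and below BT-A6sh2 in all of them (-0.45 ± 0.09, adjusted p = 0.00525). The first of these calls was lost without any of the BT-EV replicates or without BT-A6sh5 replicate 1, 2 or 4 (adjusted p up to 0.117), and the second held in all 22 alternatives.

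RPL32, a protein of the large subunit, lay at 7.13, 6.92, 6.92 and 6.99 in the BT-EV arrays, 7.05, 7.03, 6.40 and 6.85 in those of BT-A6sh5 and 7.27, 7.47, 7.57 and 7.48 in those of BT-A6sh2. Its BT-A6sh2 arrays were all above the others, and BT-A6sh5 replicate 3 was the lowest of the 12. The difference between the knockdown lines was -0.62 ± 0.14, adjusted p = 0.00921, and it did not pass in either line against BT-EV (-0.16 and 0.46, adjusted p = 0.629 and 0.0629). The 8 members lower in BT-A6sh5 than in BT-A6sh2 beyond the 8 largest were RPL14, RPL35A, RPL10A, RPL24, RPL39 17113629, RPL8, RPS9 and RPS16, with log2 fold changes from -0.43 to -0.27 and adjusted p from 0.0120 to 0.0446.

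**Figure D4:**
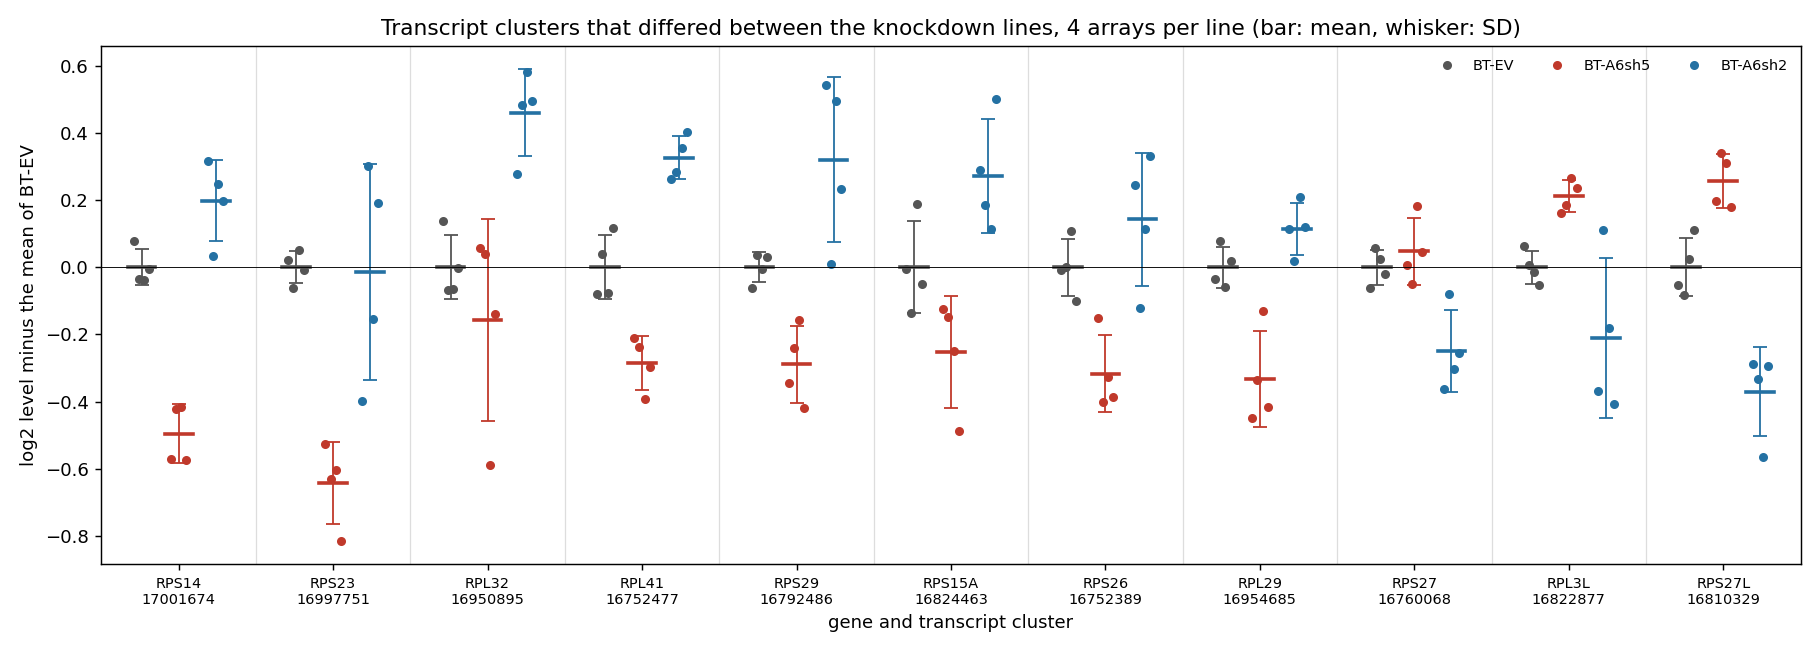
Points give each array's log2 level minus the BT-EV mean for the 8 transcript clusters most below and the 3 above in BT-A6sh5 against BT-A6sh2, with a bar at each line's mean and whiskers of ± SD (4 arrays per line). RPS14 and RPS23 are low in BT-A6sh5, RPL41 16752477 and RPL29 are parted in all arrays, and RPS27L has the opposite order.

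RPL30 and RPL28 rose in a single line each. RPL30, whose yeast counterpart binds its own mRNA, lay at 7.37, 7.48, 7.35 and 7.36 in the BT-EV arrays, 7.77, 7.76, 7.79 and 7.70 in those of BT-A6sh5 and 7.76, 7.57, 7.65 and 7.56 in those of BT-A6sh2. Both knockdown lines lay above BT-EV, with a rise of 0.36 ± 0.08 in BT-A6sh5 (adjusted p = 0.0104) while the 0.24 of BT-A6sh2 did not pass (adjusted p = 0.0771). The difference between the lines did not pass (0.12, 95% interval -0.05 to 0.29). RPL28 lay at 7.43, 7.40, 7.60 and 7.43 in the BT-EV arrays, 7.57, 7.56, 7.58 and 7.52 in those of BT-A6sh5 and 7.87, 7.67, 7.93 and 7.79 in those of BT-A6sh2. BT-A6sh2 was above the other lines in all arrays (0.35 ± 0.09, adjusted p = 0.031), and the call was lost without BT-EV replicate 1, 2 or 4 or BT-A6sh2 replicate 1 or 3 (adjusted p up to 0.0946). RPL31, which sits at the exit of the tunnel, lay at 7.37, 7.14, 7.27 and 7.19 in the BT-EV arrays, 6.84, 6.90, 7.02 and 7.04 in those of BT-A6sh5 and 6.57, 7.06, 6.37 and 6.74 in those of BT-A6sh2. It fell in BT-A6sh2 (-0.55 ± 0.13, adjusted p = 0.0299) and not by the test in BT-A6sh5 (-0.29, adjusted p = 0.242), although every array of both lines lay below BT-EV. In BT-A6sh2 replicates 1 and 3 were the lowest, and without those 2 arrays the log2 fold change was -0.34 (adjusted p = 0.128). The call was also lost without any single BT-EV array (adjusted p up to 0.0858) and without either BT-A6sh2 replicate 1 or 3 alone (adjusted p = 0.0581 and 0.0571), within a range of 0.00425 to 0.661 over all alternatives.

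The copies of other members were compared with their parent genes by their changes only, since levels of different probes cannot be set against each other. RPS27L, a copy of RPS27 that p53 induces, lay at 5.49, 5.46, 5.57 and 5.65 in the BT-EV arrays, 5.74, 5.88, 5.85 and 5.72 in those of BT-A6sh5 and 5.25, 5.21, 4.97 and 5.25 in those of BT-A6sh2. The array medians ran from 4.92 to 5.05, so its levels in BT-A6sh2 were near them. RPS27L was highest in BT-A6sh5 and lowest in BT-A6sh2 with no overlap among the lines, the reverse order of RPL41 16752477. The difference between the knockdown lines was 0.63 ± 0.09, adjusted p = 0.000621, and it held in all 22 alternatives. It fell in BT-A6sh2 (-0.37 ± 0.09, adjusted p = 0.0334), a call lost without any BT-EV array or without BT-A6sh2 replicate 3 (adjusted p up to 0.0981), and its 0.26 in BT-A6sh5 did not pass (adjusted p = 0.115).

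RPS27 itself lay at 11.88, 11.9996, 11.96 and 11.92 in the BT-EV arrays, 11.95, 11.89, 12.12 and 11.99 in those of BT-A6sh5 and 11.58, 11.86, 11.64 and 11.69 in those of BT-A6sh2. Its transcript cluster lay among neighbours of which 9 were on the minus strand of chromosome 12, where RPS27 is on chromosome 1. What its probes bind was not tested. BT-A6sh5 overlapped BT-EV, and BT-A6sh2 lay below both. Its difference between the knockdown lines was 0.30 ± 0.09, adjusted p = 0.0377, and it was lost without any of the BT-EV replicates, without replicate 1, 3 or 4 of BT-A6sh5 and without the same numbers of BT-A6sh2 (adjusted p up to 0.103). RPL3L lay at 6.02, 5.96, 5.94 and 5.90 in the BT-EV arrays, 6.11, 6.14, 6.22 and 6.19 in those of BT-A6sh5 and 5.58, 6.07, 5.77 and 5.55 in those of BT-A6sh2. These levels were not far above the array medians of 4.92 to 5.05, and whether RPL3L was expressed was not tested. Its BT-A6sh5 arrays were the 4 highest. It was higher in BT-A6sh5 than in BT-A6sh2 (0.42 ± 0.11, adjusted p = 0.0203), a call lost without BT-A6sh5 replicate 3 (adjusted p = 0.0538, within a range of 0.00178 to 0.0886 over its alternatives). RPL39L was at -0.43 against BT-EV in BT-A6sh5 (adjusted p = 0.101) and at -0.05 in the other line (adjusted p = 0.854). RPL10L was at 0.23 (95% interval -0.10 to 0.56) and 0.01 (95% interval -0.33 to 0.34).

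RPL11, RPS6 and RPL10 were called in no comparison. RPL11, which with RPL5 and ribosomal RNA binds MDM2 when ribosome assembly fails, lay at 9.38, 9.34, 9.36 and 9.37 in the BT-EV arrays, 9.34, 9.34, 9.45 and 9.38 in those of BT-A6sh5 and 9.27, 9.32, 9.37 and 9.30 in those of BT-A6sh2. The 3 lines overlapped, with log2 fold changes of 0.01 (95% interval -0.14 to 0.17) and -0.05 (95% interval -0.20 to 0.11). RPS6, the substrate of S6 kinase and a common readout of mTOR activity at the protein level, lay at 8.71, 8.57, 8.64 and 8.69 in the BT-EV arrays, 8.86, 8.77, 8.79 and 8.90 in those of BT-A6sh5 and 8.74, 8.85, 8.77 and 8.85 in those of BT-A6sh2. All knockdown arrays lay above the BT-EV arrays by a little, but neither line passed (0.18, adjusted p = 0.199, and 0.15, adjusted p = 0.221). RPL10, a late-joining protein of the large subunit, lay at 13.35, 13.37, 13.34 and 13.32 in the BT-EV arrays, 13.11, 13.19, 13.16 and 13.00 in those of BT-A6sh5 and 12.90, 13.28, 13.09 and 13.26 in those of BT-A6sh2. Every knockdown array was below the BT-EV arrays, at -0.23 (adjusted p = 0.19) and -0.22 (adjusted p = 0.178). In all, 29 transcript clusters were called in no comparison, and 27 genes had none that was. The share of all transcript clusters called in no comparison was not counted. Taken singly, BT-A6sh5 and BT-A6sh2 against BT-EV and BT-A6sh5 against BT-A6sh2 left 46, 47 and 37 of the 56 uncalled. Of all 53617 they left 47817, 49066 and 43140 uncalled.

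The calls were spread over genes with and without the start feature. Of the 16 genes with a transcript cluster lower in BT-A6sh5 than in BT-A6sh2, 14 had a promoter entry and 10 of these began with a C and at least 4 pyrimidines, while of the other 33 genes 30 had an entry and 20 carried it. RPS23, RPS14, RPL24 and RPL29, which fell in BT-A6sh5, all carried it, as did 26 of the other 40 with an entry. Among RPS27 and RPL10 and their copies, the parent gene has the run at the start shown and the copy does not. RPL10 has 3 annotated starts, and those not shown hold runs of 0 and 2 bases.

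Other genes of the translation apparatus were counted in the same fit. There 4.11% of all transcript clusters were higher and 6.71% lower in BT-A6sh5, and 5.35% and 3.13% in BT-A6sh2. In BT-A6sh5 against BT-A6sh2 the shares were 8.16% and 11.4%. Over transcript clusters with a gene symbol they were 6.28% and 12%, 5.15% and 4.63%, and 11.3% and 16.7%, in the same order. Of 5 ribosomal protein transcript clusters with symbols outside the rule, limma called 0 against BT-EV (at an unadjusted p under 0.05, 1 lower in BT-A6sh5 and 1 higher in BT-A6sh2), and between the knockdown lines BT-A6sh5 was the lower in 2, the copies RPL22L1 (-0.99 ± 0.17, adjusted p = 0.00167) and RPL26L1 (-0.70 ± 0.19, adjusted p = 0.0253). Initiation factors were present with 14 of the 45 genes listed, the inhibitors EIF4EBP1 and EIF4EBP2 among them. Of their 15 transcript clusters, 0 were higher and 3 lower (20%) in BT-A6sh5, 1 and 1 (6.67% each) in BT-A6sh2, and 1 and 5 (6.67% and 33.3%) in BT-A6sh5 against BT-A6sh2. The inhibitor EIF4EBP2 was 1 of the 3 lower in BT-A6sh5 (-0.59 ± 0.08, adjusted p = 0.000495). EIF4B, which aids the helicase that unwinds mRNA, was lower in 1 of its 2 transcript clusters by 0.64 ± 0.08 in BT-A6sh5 (adjusted p = 0.000218). Its other transcript cluster was at 0.01 (adjusted p = 0.985). EIF5A2, whose symbol alone does not show a role in initiation, was lower in BT-A6sh5 by 0.91 ± 0.09 (adjusted p = 3.68e-05). In BT-A6sh2 the cap-binding protein EIF4E was higher (0.40 ± 0.09, adjusted p = 0.0221) and its inhibitor EIF4EBP1 was lower (-0.44 ± 0.09, adjusted p = 0.0198). Of 9 transcript clusters of elongation and termination factors (8 of 13 genes listed) 3 were lower (33.3%) in BT-A6sh5 against each of the other lines and 0 were higher in any comparison, with EEF2K, the kinase that inhibits elongation factor EEF2 (-0.60 ± 0.11, adjusted p = 0.0036, against BT-EV), and 1 of 2 transcript clusters of EEF1G (-0.51 ± 0.09, adjusted p = 0.00328) the largest.

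Ribosome biogenesis factors, which process ribosomal RNA and assemble the subunits, were called in all 3 comparisons. Their 53 transcript clusters were of 52 of the 68 genes listed. In BT-A6sh5 8 were higher (15.1%, where 4.11% of all transcript clusters were) and 12 lower (22.6%, where 6.71% were), with a median of -0.04. In BT-A6sh2 14 were higher (26.4%, where 5.35% were) and 1 was lower (1.89%, where 3.13% were), with a median of 0.18. In BT-A6sh5 against BT-A6sh2 4 were higher (7.55%, where 8.16% were) and 22 lower (41.5%, where 11.4% were), with a median of -0.24. Among transcript clusters with a gene symbol, 6.28% were higher and 12% lower in BT-A6sh5, and 5.15% and 4.63% in BT-A6sh2. Between the knockdown lines 11.3% of these were higher and 16.7% lower. NOP16 fell in BT-A6sh5 by 1.12 ± 0.09 (adjusted p = 6.48e-06) and was below BT-A6sh2 by 1.60 ± 0.09 (adjusted p = 2.89e-07). The helicase DDX56 was lower than in BT-A6sh2 by 0.95 ± 0.08 (adjusted p = 1.24e-05), while NOP10, a part of the particles that modify ribosomal RNA, was higher by 0.87 ± 0.10 (adjusted p = 0.000106). In BT-A6sh2, RRP1 (0.54 ± 0.08, adjusted p = 0.00476) and SBDS (0.51 ± 0.10, adjusted p = 0.0134) were higher than in BT-EV. Of 4 transcript clusters (4 of 16 genes listed) in the list for RNA polymerase I, which makes ribosomal RNA, BT-A6sh5 had 2 below both other lines, the subunit POLR1F (-0.85 ± 0.11, adjusted p = 0.000232) and the transcription factor MYC (-0.59 ± 0.09, adjusted p = 0.00125), and in BT-A6sh2 RRN3 (0.73 ± 0.14, adjusted p = 0.0135) and POLR1H (0.38 ± 0.09, adjusted p = 0.0276) were higher. Of 31 transcript clusters named as ribosomal protein pseudogenes, 4 were lower (12.9%, near the 11.4% of all) and 1 was higher (3.23%, where 8.16% were) in BT-A6sh5 than in BT-A6sh2, with a median of 0.02. Probes shared between a ribosomal protein gene and its processed copies cannot be told apart in these values.

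**Figure D5:**
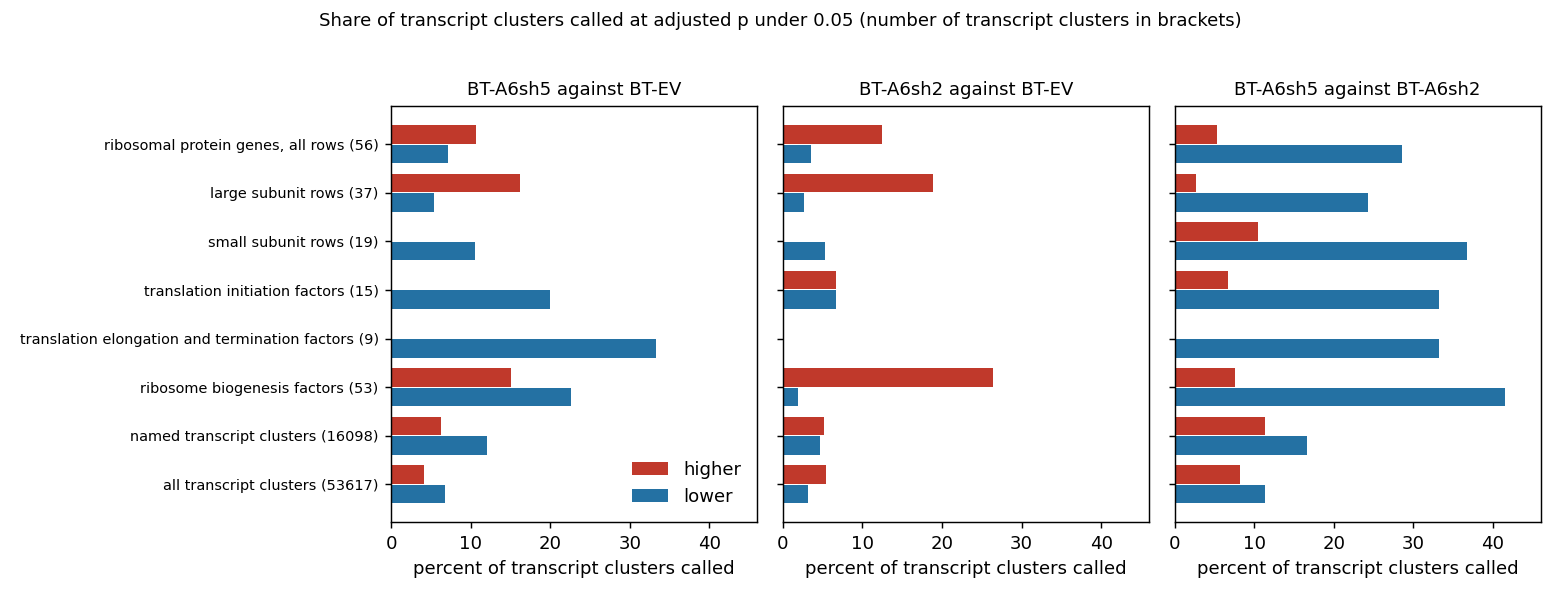
Bars give the percent of transcript clusters called higher (red) or lower (blue) at an adjusted p under 0.05 in the 3 comparisons, for the members, their subunits, other translation lists, the named and all transcript clusters. In the third panel 28.6% of the ribosomal protein and 41.5% of the biogenesis transcript clusters were lower. The share was 16.7% of the named transcript clusters and 11.4% of all.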

How the data were processed

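RNA of 3 lines was profiled on 12 Affymetrix Human Gene ST arrays. The authors summarized and normalized the probe intensities by robust multi-array average (RMA) in Affymetrix Expression Console. They deposited log2 values of 53617 transcript clusters, a count that includes 190 control probe sets. The submitters' notes name affy and limma as well, with neither versions nor a genome build (both not given in the sources used here). RMA makes the distributions of the arrays alike, so a shift shared by most transcripts would be hidden. No value was missing, 0 columns were without a sample and 0 pairs of arrays were identical. Arrays give no depth, and their number limits the precision. The median log2 value of an array ran from 4.92 to 5.05.

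Gene symbols and probe identifiers came from the platform annotation. Of the transcript clusters, 16098 had a symbol and 37519 had none, and the latter were kept in the fit. The log2 values were used as deposited. The 190 control probe sets were kept in the fit and in the adjustment of p-values. Group means of the 3 lines were fitted together in limma 3.58.1 (R 4.3.3) with a constant prior (9 residual and 2.679 prior degrees of freedom), and adjusted p under 0.05 was called. The script was tested on simulated data. Named members were those called, at most 8 per direction and comparison by size, every transcript cluster of a gene whose transcript clusters disagreed, and a few members of known role (RPL10, RPL10L, RPL11, RPS6, RPL39L). The members and gene lists were chosen with earlier results of these data known. The shared replicate numbers do not pair the arrays. Alternatives were another fit per pair of lines, prior, filter, normalization, centring, 1 transcript cluster per gene, a replicate block, array weights, the hybridization controls as a covariate and the omission of arrays. Annotated starts came from RefSeq promoter windows on GRCh38.p14. Python 3.11.15 with pandas 2.3.3 joined the tables, and matplotlib 3.10.9 drew the plots.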

Additional observations from a re-analysis of the deposited data

Results flagged for a closer look

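In 3 of the 84 groups of 4 arrays examined, where chance gives about 1 in 20, a single array stood far from the others. RPS27L was at 4.97 in BT-A6sh2 replicate 3, where the other 3 arrays lay at 5.21 to 5.25. RPL28 was at 7.60 in BT-EV replicate 3, above the 7.40 to 7.43 of the others. RPL30 was at 7.48 in BT-EV replicate 2, above 7.35 to 7.37.

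The change against BT-EV differed between the lines BT-A6sh5 and BT-A6sh2, by limma's test of the difference, in 13 of the named transcript clusters. Those lower in BT-A6sh5 were RPS14 (-0.69), RPS23 (-0.63), RPL32 (-0.62), RPL41 16752477 (-0.61), RPS29 (-0.61), RPS15A (-0.52), RPS26 (-0.46), RPL29 (-0.45), RPL39 17113629 (-0.40) and RPL24 (-0.29). Higher were RPS27L (0.63), RPL3L (0.42) and RPS27 (0.30).

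Hybridization control probe sets, which measure transcripts added in the laboratory, had a mean log2 level of 8.76 in BT-A6sh5 and 8.94 in BT-A6sh2, above the 8.10 to 8.29 of the BT-EV arrays. The 5 transcript clusters of RPL19, RPL39 and RPL41 that were higher in both knockdown lines likewise lay above BT-EV. The part of the controls in those rises was not tested beyond the fit with them as a covariate.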

How the results depend on the processing

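Of 1827 repeats of the 84 results named, 0 changed direction after a call, 119 lost a call and 51 gained one. In BT-A6sh5 against BT-EV, the 4 lower became 14 with each pair of lines fitted alone, 11 with a trended robust prior, 12 among transcript clusters above the median, 7 with median centring, 16 with array weights, 12 without BT-A6sh2 replicates 1 and 3, and 0 with the hybridization controls as a covariate, and the 6 higher became 2 with 1 transcript cluster per gene and 0 with the covariate. In BT-A6sh2 against BT-EV, the 7 higher became 4, 11, 11, 11, 4, 4 and 0 in the same order, and 2 with 1 transcript cluster per gene. The 2 lower became 0 with pairs fitted alone, 4 with the trended robust prior, 1 with repeated quantile normalization or median centring, and 0 with array weights, with the covariate or without BT-A6sh2 replicates 1 and 3. Between the knockdown lines the 3 higher became 1 with pairs fitted alone or without those 2 arrays, and the 16 lower became 7 with pairs fitted alone and 9 after repeated quantile normalization. The median of 0.06 in BT-A6sh2 was 0.11 with median centring, 0.014 with 1 transcript cluster per gene, 0.14 with the covariate and 0.10 without those 2 arrays, and the median of -0.11 between the lines was -0.18 with centring. Centring moved the median of all transcript clusters from -0.03 to -0.11 in that comparison. Calls over all transcript clusters moved in these settings as well, as given above. The cause of these shifts was not tested.

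Without 1 array at a time, the counts ran from 6 to 6 higher and 3 to 6 lower in BT-A6sh5 against BT-EV, from 4 to 9 higher and 0 to 4 lower in BT-A6sh2 against BT-EV, and from 1 to 4 higher and 10 to 14 lower between the knockdown lines. The lowest came without BT-EV replicate 1 or 2 for the 4 higher in BT-A6sh2, without BT-A6sh5 replicate 2 for the 10 and without BT-A6sh5 replicate 3 for the 1.

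The replicate numbers do not pair the arrays, since same-numbered arrays correlated in their deviations by only -0.08 to 0.05 over 12 pairs and 4 of 12 arrays were most like one of their own number. With the replicate block the counts were 6 higher and 3 lower in BT-A6sh5, 5 and 0 in BT-A6sh2, and 2 and 11 between the knockdown lines. Over all transcript clusters the block gave 1701 and 2820, 1465 and 862, and 3542 and 5038 in the same order.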
